A study of Mus musculus with 4 samples.

Results

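The insulin and insulin-like growth factor (IGF) genes described here are Igf1, Igf2, Igf1r, Igf2r, Insr, Irs1, Irs2, Igfbp2, Igfbp4 and Igfbp5, as read by expression arrays in whole left hippocampi from wild-type mice. They were chosen by name, with earlier results of these data known. Every probe set that the array's probe table pairs with exactly 1 of these symbols was taken. This gave 27 of the 45101 probe sets on the array, for 10 of 18194 genes with a probe set of their own. A probe set is a group of short oligonucleotides that together read 1 stretch of a transcript.

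The 4 samples, to which the labels give the numbers 11, 13, 15 and 17, are biological replicates of 1 wild-type group, each hybridised to 1 Affymetrix expression array, and no treatment or altered allele is named for any of them. The sources used here give no strain, age or sex. With 1 group, the questions were which of these genes gave signal above background in the hippocampus, whether the probe sets of a gene gave the same picture, and how far the 4 samples differed. The values are log2 intensities, called levels below, and their precision is limited by having 4 arrays.

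Insulin and the IGFs act through receptor tyrosine kinases that phosphorylate adaptor proteins, the insulin receptor substrates, and these recruit phosphoinositide 3-kinase and activate AKT. AKT in turn acts on mTOR, GSK3 and the FOXO transcription factors, which govern protein synthesis, metabolism and survival. Secreted binding proteins hold the IGFs in the extracellular space, and a further receptor, Igf2r, carries IGF2 to lysosomes. In the brain, IGF1 is known for roles in growth, neurogenesis and vascular remodelling, and IGF2 is known to be made strongly by the meninges and choroid plexus and has been studied in hippocampal memory.

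The tissue carried the transcripts of its label, and samples differed in some marker lists and in the 3' minus 5' signal of control transcripts. All 12 neuronal markers and 10 of 12 markers of hippocampal fields lay above background. Of 11 measured choroid plexus markers 1 was above it, of 10 ependymal markers 0, of 15 markers of meninges and fibroblasts 2, of 11 endothelial markers 4, of 10 mural markers 3 and of 10 thalamic markers 3. Interneuron markers were at 11 of 12, astrocyte markers at 11 of 12, myelin and oligodendrocyte markers at 8 of 11 and microglial markers at 8 of 12. Sample 13 was highest for 11 of 11 myelin and oligodendrocyte markers, whose summed linear intensity was 11187 there and 8348 to 9107 in the others, and for 9 of 10 ependymal markers. Array medians ran from 4.67 to 4.71. The 3' minus 5' difference of the Gapdh control, which reads loss of 5' signal, was 0.62 in samples 11 and 13, 2.64 in sample 15 and 3.79 in sample 17. For the beta-actin control it differed less, at 1.10, 1.25, 1.93 and 2.33 in samples 11, 13, 15 and 17. In bulk tissue, fewer cells of a type and less RNA per cell cannot be told apart.

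Of the 10 genes, 8 were above background by the probe set with the highest mean, and Igf1 and Insr were not. The background was a level of 6.94, the 95th percentile over 46 genes that belong to other tissues such as liver, muscle, skin or testis, whose median level was 3.52. Across the array 37.9% of genes passed this limit. Of the 27 probe sets 13 passed, against 27.6% of all probe sets with 1 symbol and 23.4% of all probe sets. The limit rests on few genes: Krt10, Lor and Lct lay above it themselves, and at the 90th percentile, a level of 6.17, 17 member probe sets and 9 member genes passed, Insr among them. At the 99th percentile, a level of 7.66, 9 probe sets and 6 genes passed, and Igf2r and Igfbp2 fell under it. The array share was not counted at the 90th or the 99th percentile. With each gene read by the median of its probe sets and a limit of 6.86, 6 member genes passed, beside 23.8% of all genes. Igf2, at 6.08, and Igf1r, at 6.85, were then under the limit. A transcript may be present although its level is under background, and because probe sets differ in affinity the levels of different genes are not ranked.

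**Figure D1:**
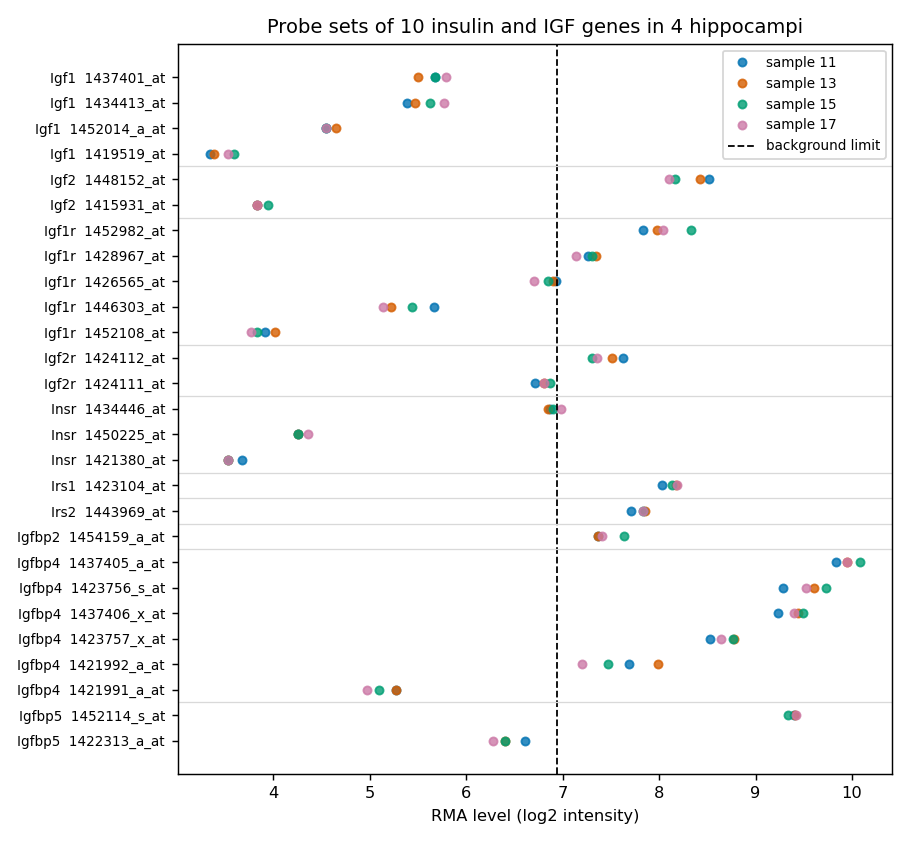
Level of each of the 27 probe sets (log2 intensity, horizontal axis) in each of the 4 samples (coloured points), grouped by gene with the highest mean first; the dashed line is the background limit of 6.94. Points of a probe set lie close together, while probe sets of 1 gene often lie on both sides of the line, and all 4 Igf1 probe sets sit left of the line.

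Of the ligands, Igf2 gave a clear signal with 1 of its 2 probe sets, and Igf1 with none of its own. Igf2, a growth factor that is imprinted and abundant in fetal tissue, read 8.51, 8.42, 8.16 and 8.11 in samples 11, 13, 15 and 17 with probe set 1448152_at, a mean of 8.30 ± 0.20 (SD, n = 4). Samples 11 and 13 were the higher pair, and the whole range was 0.41 on the log2 scale, or 1.33-fold. The second Igf2 probe set, 1415931_at, was designed on the same sequence record and stayed under background at 3.86 ± 0.054, with the same value in samples 11, 13 and 17.

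Igf1, the ligand best known as the mediator of growth hormone, was under background with all 4 of its probe sets, also at the 90th percentile. Probe set 1437401_at, its brightest, read 5.68, 5.503, 5.68 and 5.79 in samples 11, 13, 15 and 17, with a mean of 5.66 ± 0.12. The next, 1434413_at, had a mean of 5.57 ± 0.17, from 5.39 in sample 11 to 5.77 in sample 17. Both were highest in sample 17, and the lowest sample was 13 for the first and 11 for the second. The other 2 probe sets had means of 4.58 and 3.47. Ins2, an insulin gene of the pancreas and the genomic neighbour of Igf2, was also under background, at 5.61 ± 0.081.

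The order of the samples for Igf2 was set beside other measures. Ptgds, an enzyme of meningeal and other cells, read 11.73, 11.26, 11.13 and 11.07 in samples 11, 13, 15 and 17, and Dcn, a matrix protein of fibroblasts, 9.38, 8.99, 8.79 and 9.11. These were the 2 of 15 meningeal and fibroblast markers above background. Sample 11 was highest for 8 of the 15, sample 17 for 3 and samples 13 and 15 for 1 each. The summed linear intensity of the 15 was 4640 in sample 11 and between 3196 and 3481 in the other samples. Ptgds and Dcn made up most of that sum. The other markers of the list, the collagen genes Col1a1, Col1a2 and Col3a1 among them, were all under background. Ttr, the defining transcript of choroid plexus, followed another order, at 7.36, 9.84, 6.86 and 6.54. The summed intensity of the choroid plexus list was 1159 in sample 13 and 281.6 to 376.7 in the others. Ttr made up most of that sum in sample 13 and was the only 1 of the 11 measured markers above background. Igf2 was 0.092 lower in sample 13 than in sample 11. The Gapdh 3' minus 5' difference was larger in samples 15 and 17, the samples in which Igf2 was lower. The part of these measures in the Igf2 values was not tested.

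**Figure D2:**
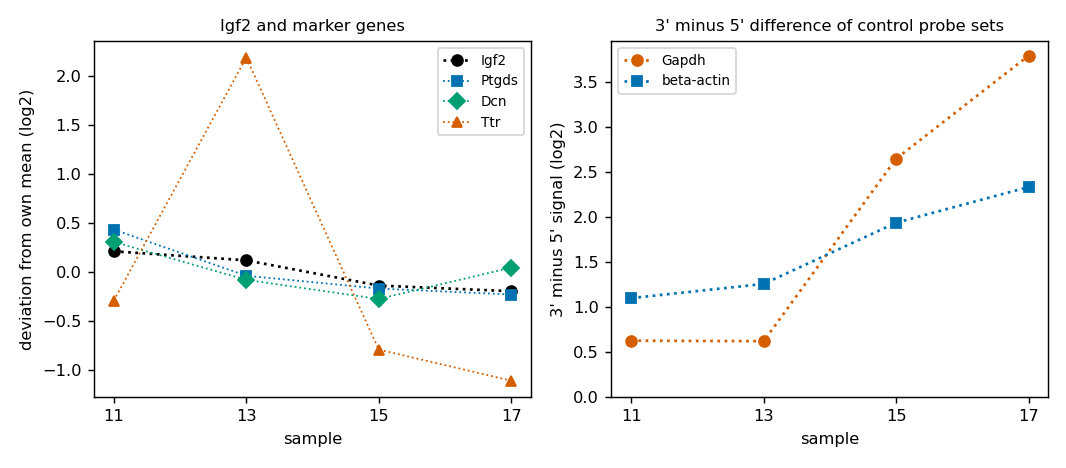
Left, deviation of Igf2 (probe set 1448152_at) and of the marker genes Ptgds, Dcn and Ttr from their own mean (log2) in each sample; right, 3' minus 5' signal (log2) of the Gapdh and beta-actin controls. Dotted lines only join the points of 1 gene, since samples have no order; Igf2 and Ptgds were highest in sample 11 and lowest in sample 17, while Ttr was highest in sample 13, and the Gapdh difference went from 0.62 in samples 11 and 13 to 3.79 in sample 17.

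Of the receptors, Igf1r and Igf2r were above background by their brightest probe sets, and Insr lay at the edge of background. Igf1r, the receptor tyrosine kinase for both IGFs, had 5 probe sets, of which 2 passed. Probe set 1452982_at read 7.83, 7.98, 8.34 and 8.04 in samples 11, 13, 15 and 17, a mean of 8.05 ± 0.21 and a range of 1.42-fold. Probe set 1428967_at, designed on the same record, read 7.26, 7.35, 7.304 and 7.13, a mean of 7.26 ± 0.092. The first was highest in sample 15 and lowest in sample 11, and the second was highest in sample 13 and lowest in sample 17, so the 2 probe sets gave no common order of samples. Without sample 15 the SD of the first fell to 0.11.

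The other 3 Igf1r probe sets were all lowest in sample 17. They had means of 6.85 ± 0.10 for 1426565_at, 5.36 ± 0.24 for 1446303_at and 3.89 ± 0.11 for 1452108_at. With 1428967_at this made 4 of 5 Igf1r probe sets lowest in sample 17, the sample with the largest Gapdh 3' minus 5' difference, 3.79; its part in these values was not tested. Those 3 are under background, and of the 2 Igf1r probe sets above it 1 was lowest in sample 17. Over all probe sets 21% were lowest in sample 17, and over those above background 16.3%.

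Igf2r, also known as the cation-independent mannose 6-phosphate receptor, sorts lysosomal enzymes and clears IGF2. Its probe set 1424112_at read 7.63, 7.51, 7.301 and 7.36 in samples 11, 13, 15 and 17, a mean of 7.45 ± 0.15. As for Igf2, samples 11 and 13 were the higher pair. The Gapdh 3' minus 5' difference was 0.62 in samples 11 and 13, 2.64 in sample 15 and 3.79 in sample 17. Its part in the Igf2r values was not tested. The second probe set, 1424111_at, went another way, with 6.72 in sample 11, 6.87 in sample 15 and 6.80 in both other samples, a mean of 6.80 ± 0.061 that lay just under background.

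Insr, the insulin receptor, read 6.87, 6.85, 6.904 and 6.98 in samples 11, 13, 15 and 17 with 1434446_at, a mean of 6.90 ± 0.059. Sample 17 alone was above the limit of 6.94, and the mean lay 0.037 under it. The limit itself moved when samples were left out: without sample 15 it was 6.89, and Insr was then above it. The other 2 Insr probe sets, designed on 1 common record, had means of 4.29 ± 0.050 and 3.57 ± 0.071, each with 3 equal values. Insrr, the orphan relative of the insulin receptor, was under background at 4.10 ± 0.051.

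Both adaptors were above background in every sample and differed little between samples. Irs1, the first insulin receptor substrate to be described, read 8.03, 8.17, 8.14 and 8.18 in samples 11, 13, 15 and 17, a mean of 8.13 ± 0.068. Irs2, the relative that has been tied to brain growth and to beta cell survival, read 7.71, 7.86, 7.84 and 7.84, a mean of 7.81 ± 0.066. Sample 11 was the lowest for both. Each gene is read by 1 probe set, and the spread rested on sample 11: without it the SD was 0.024 for Irs1 and 0.012 for Irs2. After quantile normalization of the deposited values the SD of Irs1 was 0.044. Sample 11 was also the lowest for 44.9% of all probe sets above background.

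Of the binding proteins, Igfbp2, Igfbp4 and Igfbp5 were all above background. Igfbp2, a binding protein of brain and cerebrospinal fluid, read 7.36 in samples 11 and 13 alike, 7.63 in sample 15 and 7.41 in sample 17, a mean of 7.44 ± 0.13 with its only probe set, 1454159_a_at. Sample 15 stood above the other 3, and without it the SD was 0.026. The summed choroid plexus list was highest in sample 13, there mostly through Ttr, and in that sample Igfbp2 had the same value as in sample 11. The summed lists of mural cells, microglia and hippocampal fields were highest in sample 15, at 1711, 3129 and 6852, and all other lists in other samples. The Gapdh 3' minus 5' difference was 2.64 in sample 15 and 3.79 in sample 17. The part of these measures in the Igfbp2 values was not tested.

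Igfbp5, which binds IGFs in the matrix and is the genomic neighbour of Igfbp2, had the smallest spread of the 13 probe sets above background. Probe set 1452114_s_at read 9.396, 9.404, 9.33 and 9.42 in samples 11, 13, 15 and 17, a mean of 9.39 ± 0.039. All 4 values lay within 1.07-fold, and without sample 15, the lowest, the SD was 0.014. With the ending _s_at, this probe set can share probes with other transcripts. The second probe set, 1422313_a_at, had a mean of 6.42 ± 0.14, under background, and was highest in sample 11.

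Igfbp4, a binding protein that inhibits IGF action until the protease Pappa cuts it, had 6 probe sets, 5 of them above background, which fell into 2 patterns. The brightest, 1437405_a_at, read 9.84, 9.95, 10.08 and 9.95 in samples 11, 13, 15 and 17, a mean of 9.96 ± 0.10. Probe set 1423756_s_at read 9.29, 9.60, 9.73 and 9.52, a mean of 9.54 ± 0.19. With 1437406_x_at at 9.39 ± 0.11 and 1423757_x_at at 8.67 ± 0.12, these were 4 probe sets that were all lowest in sample 11. Their highest sample was 15 for 3 of them and 13 for 1423757_x_at.

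The fifth Igfbp4 probe set above background, 1421992_a_at, read 7.69, 7.99, 7.47 and 7.199, a mean of 7.59 ± 0.33. It was highest in sample 13 and lowest in sample 17, a range of 1.73-fold, the largest among the 13 probe sets above background. The sixth, 1421991_a_at, comes from the same record and was likewise lowest in sample 17, at 4.97, and highest in samples 11 and 13, at 5.28 each. Which way Igfbp4 differed between samples 11 and 17 therefore depended on the probe set: sample 17 was 0.24 higher by 1423756_s_at and 0.49 lower by 1421992_a_at. Probe sets with the ending _s_at or _x_at can share probes with other transcripts. The Gapdh 3' minus 5' difference was 0.62 in sample 11 and 3.79 in sample 17, and its part in this disagreement was not tested.

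**Figure D3:**
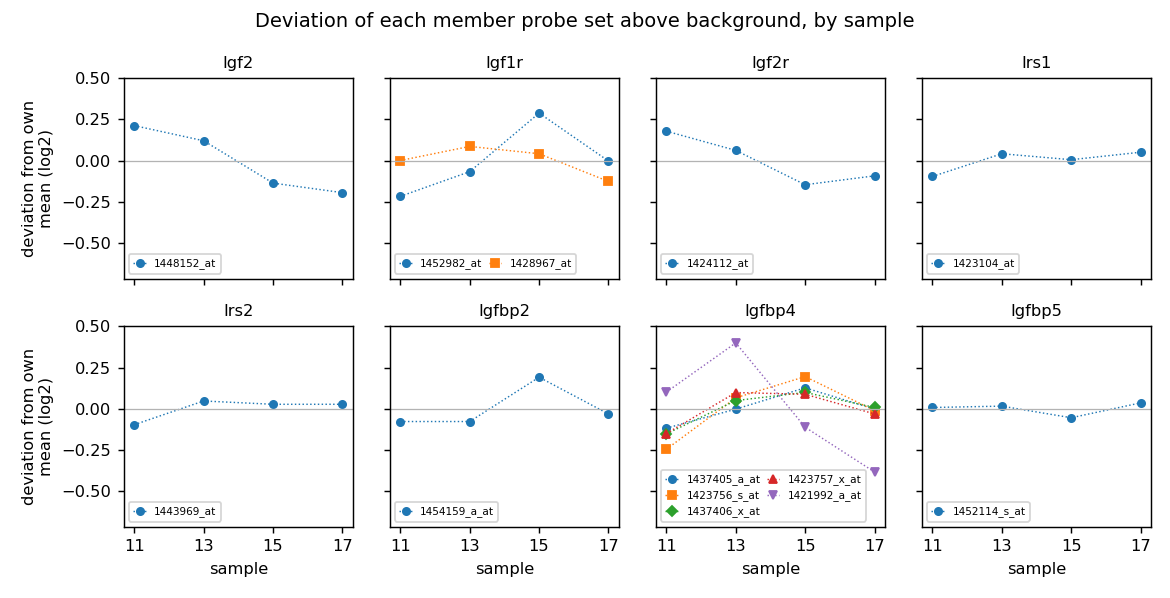
Deviation of each of the 13 probe sets above background from its own mean (log2, vertical axis) by sample (horizontal axis), 1 panel per gene and 1 symbol per probe set. Dotted lines only join the points of 1 probe set, since samples have no order; 4 Igfbp4 probe sets are lowest in sample 11, while 1421992_a_at is highest in sample 13 and lowest in sample 17.

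Probe sets of the same gene often lay on both sides of background. Of the 5 member genes with several probe sets and at least 1 above background, all 5 also had a probe set under background, which was so for 83.3% of such genes on the array. Probe affinity differs, so the gap between probe sets of a gene cannot be read as a difference in transcript amount. What lies behind these gaps was not tested. Pairs designed on 1 common record lay on both sides of background for Igf2 (8.30 and 3.86) and for 1 of 3 such Igfbp4 pairs (7.59 and 5.16). The other 2 Igfbp4 pairs and 1 Igf1r pair were above it with both probe sets, and the second Igf1r pair (6.85 and 3.89) and the Insr pair under it with both.

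No member, and no probe set on the array, passed a test for a spread between samples larger than that fitted at its level. In limma's fit over all 10561 probe sets above background, in which the variance of a probe set is set against the variance fitted at its level, 0 of 13 member probe sets passed an adjusted p of 0.05 (Benjamini-Hochberg), and 0 of 13 had an unadjusted p under 0.05. Over the array 0% passed, and 3.1% had an unadjusted p under 0.05. The smallest unadjusted p of a member was 0.051, for Igfbp4 with 1421992_a_at, with an adjusted p of 0.894. The members' median SD was 0.12 (range 0.039 to 0.33), beside 0.085 for all probe sets above background. The smallest adjusted p over all 10561 probe sets in this fit was also 0.894. With 3 and 2.30 degrees of freedom the adjusted test had little power, so a miss by a member says little about its spread. With 4 arrays a p that misses the threshold does not show that the samples were alike.

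**Figure D4:**
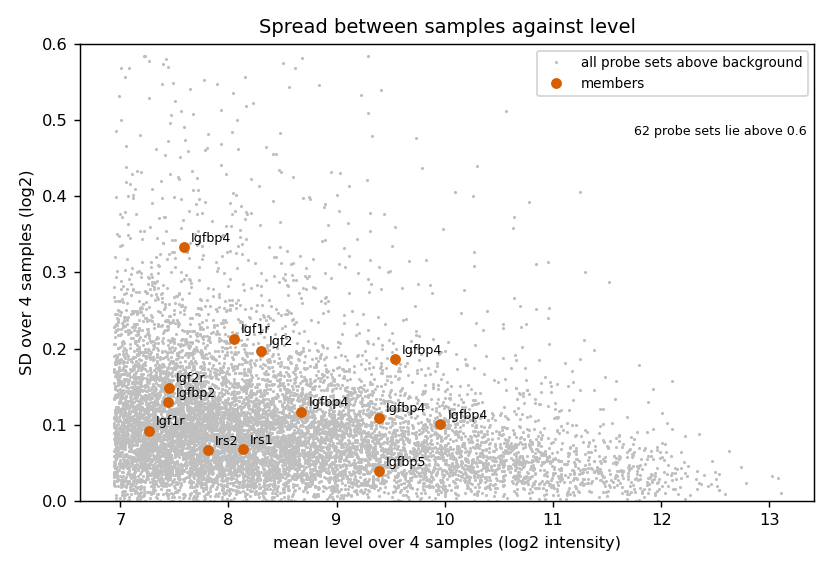
SD over the 4 samples (log2, vertical axis) against mean level (log2 intensity, horizontal axis) for all 10561 probe sets above background (grey) and the 13 member probe sets (orange, named by gene); 62 probe sets with an SD above 0.6 are off the plot. The members lie within the grey cloud, with 1 Igfbp4 probe set highest at 0.33 and Igfbp5 lowest at 0.039.

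The samples did not differ in 1 common direction across the members. Of the 13 probe sets, 7 were lowest in sample 11 (4 of these read Igfbp4), 2 in sample 15 and 3 in sample 17. The remaining 1, of Igfbp2, was equally low in samples 11 and 13. Over all probe sets above background, the share that was lowest in samples 11, 13, 15 and 17 was 44.9%, 18.5%, 13.4% and 16.3%. The highest sample was 15 for 5 members, 13 for 4, and 11 and 17 for 2 each, beside 26.2%, 18.7%, 12.8% and 35.4% of all probe sets in that order. The 2 members highest in sample 11 were Igf2 and Igf2r. After quantile normalization or median centring of the arrays 12 of 13 probe sets kept their highest sample, with Igfbp5 the exception in the first case and Irs2 in the second.

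For the 3 members with the largest SD by their brightest probe set, the genes nearest in pattern were found as those with the smallest root mean square difference of centred values over the 4 samples. For Igf1r (1452982_at) these were Fam189a1, at a difference of 0.015, Msl3l2, Fabp5, Ext1 and Rgs14, at 0.039, among 2296 genes compared. For Igf2 they were Gap43, at 0.025, Tcf25, Ubap2l, Rpgrip1 and Dmd, at 0.037, among 2643. For Igf2r they were Cdc42, at 0.014, Top1, Arglu1, Lrig2 and Ckap5, at 0.025, among 3837. With 4 samples and so many genes, close matches are to be had for many patterns, and these are given as a description.

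Every step of the wider pathway except the Igf2 mRNA-binding proteins had at least 1 gene above background by its brightest probe set. Of 59 other pathway genes with a probe set of their own, 35 were above background by the brightest probe set, beside 37.9% of all genes. By probe set the count was 48 of 157, beside 27.6% of all probe sets with 1 symbol. When a gene was read by the median of its probe sets 16 of the 59 passed, beside 23.8% of all genes. By both of these readings the pathway genes lay near the array share. The 59 genes had 157 probe sets, and the 18194 genes of the array had 34958. More probe sets give a gene more chances to pass by its brightest. With the members included, 8 of 10 genes of the phosphoinositide 3-kinase and AKT step, 8 of 11 of the mTOR branch, 4 of 5 of the FOXO and GSK3 branch, 2 of 2 of the MAP kinase branch and 6 of 9 adaptors passed. For genes that act outside the cell or at its surface the counts were 1 of 3 ligands, 2 of 4 receptors, 4 of 8 binding proteins and 2 of 6 proteases and their inhibitors. Of the inhibitors of receptors and adaptors 4 of 6 passed, of the glucose transporters 2 of 3, and of the Igf2 mRNA-binding proteins 0 of 2. The other listed genes were not analysed here.

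**Figure D5:**
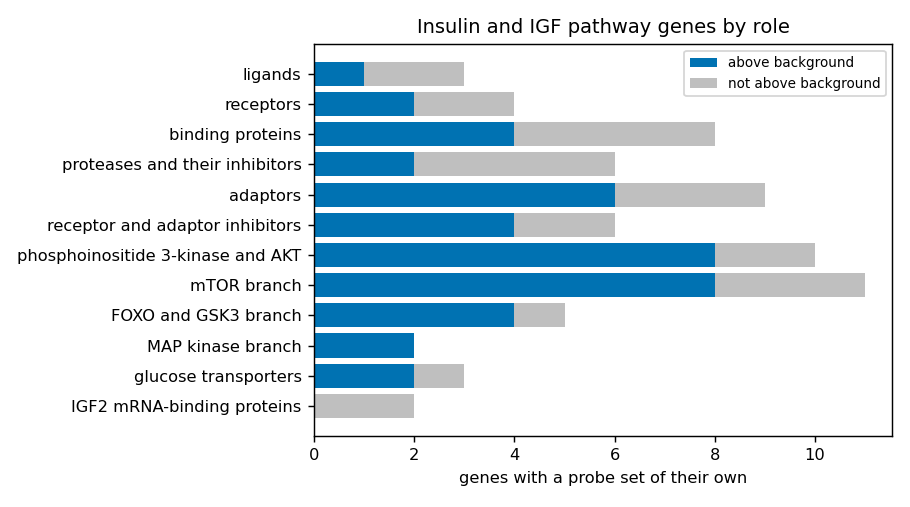
Number of pathway genes with a probe set of their own (horizontal axis) by role, members included, split into genes above background (blue) and not above it (grey). The AKT and mTOR steps have 8 genes above background each, while ligands have 1 of 3 and the binding proteins 4 of 8.

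Among the other binding proteins, Igfbp7, which binds IGFs weakly and is found in vessels, was above background at 8.25 ± 0.085. Igfbp6, which prefers IGF2, was just under it at 6.88 ± 0.035, and Igfbp3, the main carrier in serum, was under it at 6.28 ± 0.19. Igfbp1 of liver, at 2.92 ± 0.0042, and Igfals, the serum partner of Igfbp3, at 4.83 ± 0.067, were far under. Htra1, a secreted serine protease that can cleave binding proteins, was above background at 10.58 ± 0.11, and Ide, the insulin-degrading enzyme, at 8.21 ± 0.095. The protease Pappa, which cuts Igfbp4, was under it at 4.24 ± 0.035.

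Among the genes that act on the receptor signal, the docking protein Gab1 read 7.25, 7.63, 7.40 and 7.31 in samples 11, 13, 15 and 17, and the exchange factor Sos1 had a level of 8.11 ± 0.099. Of the inhibitors, Grb10 had a level of 7.52 ± 0.060 and the cytokine signalling suppressor Socs2 of 7.90 ± 0.13. In the kinase step, the catalytic subunit Pik3ca stood at 8.35 ± 0.086 and the AKT phosphatase Phlpp1 at 8.90 ± 0.091. In the mTOR branch, Mlst8 stood at 7.15 ± 0.14 and Tsc2, an mTOR inhibitor, at 8.68 ± 0.12.

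Foxo1, a transcription factor that AKT keeps out of the nucleus, had the largest SD among these 35 genes. It read 8.06 in sample 11, 8.26 in samples 13 and 15 and 8.54 in sample 17, a mean of 8.28 ± 0.20. The probe sets of Foxo1 and of Slc2a3 have the ending _s_at and can share probes with other transcripts. The kinase Gsk3b stood at 10.05 ± 0.060. The glucose transporter Slc2a1 of vessels and astrocytes read 8.67, 8.68, 8.82 and 8.98, Slc2a3 of neurons had a level of 10.89 ± 0.081, and the insulin-responsive Slc2a4 was under background at 4.81 ± 0.075. In the same limma fit, 0 of 48 probe sets of the other pathway genes passed an adjusted p of 0.05, beside 0% over the array. An unadjusted p under 0.05 was found for 1 of 48, beside 3.1% over the array. Their median SD was 0.064 by the brightest probe set of a gene, beside 0.082 for all genes above background. Sample 17 was highest for 15 of the 35 genes and sample 11 lowest for 16. Over all probe sets above background these shares were 35.4% and 44.9%.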

How the data were processed

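Total RNA of 4 left hippocampi was extracted, DNase treated, amplified and labelled with biotin, per the labels' protocols. The file holds 1 log2 intensity for each probe set and sample, deposited by the authors after RMA according to the submitters' processing notes; the version and settings of RMA are not given in the sources. Equal values in 2 or more samples occurred in 11 of 27 member probe sets and 53.3% of all.

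The probe table named 34958 probe sets with 1 symbol. Symbols were updated by Entrez identifier through RefSeq (GRCm38.p6), which held 34754 of them and served only for names and neighbours. Genes in pathway counts were read by their probe set with the highest mean. Control probe sets (64) were left out of the tests. The background was the 95th percentile over 46 of 50 listed genes. Spread was tested with limma (intercept, eBayes with trend and robust fit): residual over prior variance as F with 3 and 2.30 degrees of freedom, Benjamini-Hochberg adjusted over all probe sets above background, and the script was tested on simulated data. The members and lists were chosen with earlier results of these data known. Named pathway genes are all ligands, receptors and binding proteins and the 2 largest SDs above background in each role with 3 or more measured genes; Pappa and Slc2a4 were added after their values were seen. Alternatives covered the background limit, normalization, probe set choice, variance prior, filter and each sample left out. The omission of samples 15 and 17 and a Gapdh covariate were chosen after seeing the data. R 4.3.3, limma 3.58.1 and Python 3.11.15 were used.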

Additional observations from a re-analysis of the deposited data

Results flagged for a closer look

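In each of the following probe sets 1 of the 4 samples stood far from the other 3: its gap to the nearest sample, as a share of the whole range, was above Dixon's 95% critical value for 4 samples. Chance passes about 1 in 20 groups, but equal values make the share reach 1, and 26% of all probe sets on this array passed, beside 6 of 27 member probe sets. Above background the share was 14.9% over the array, beside 2 of 13 member probe sets.

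Among members above background, Irs2 was low in sample 11 with a share of 0.861, and Igfbp2 was high in sample 15 with a share of 0.83. Both had an equal pair of values. The 4 probe sets under background, each with 3 equal values and a share of 1, were Igf1 (1452014_a_at, high in sample 13), Igf2 (1415931_at, high in sample 15) and Insr (1450225_at, high in sample 17, and 1421380_at, high in sample 11). Among other pathway genes, Igfbp1 was high in sample 11 and Ide in sample 17 and Pik3ca low in sample 15, each with a share of 1. Grb10 was high in sample 11 with a share of 0.831, and Tsc2 low in sample 17 with 0.867.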

How the results depend on the processing

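No paired analysis was possible because the samples form 1 group. The number of member probe sets above background was 13, and ran from 9 to 17 over the settings tried; that of member genes was 8, and ran from 6 to 9. Without each sample in turn these counts were 13 to 14 and 8 to 9, and without samples 15 and 17 they were 15 and 9. Of the other pathway genes 35 passed, and 30 to 41 under other limits, normalizations or samples. When a gene was read by the median of its probe sets 16 passed, beside 23.8% of all genes. Array shares were counted only at the main limit and for that median reading. No member or pathway probe set passed the test of spread under any setting tried, but in the main setting no probe set on the array passed it. Of 80 recomputed member levels 73 moved by less than 1 SD; the other 7 were those read by the median of a gene's probe sets. Of 70 recomputed SDs 55 stayed within 1.5 times. Signals near the limit, such as Insr, cannot be placed on either side of it with these arrays.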

Other observations

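The probe set 1440979_at, which the probe table pairs with both Igf2r and Airn, the antisense RNA that overlaps Igf2r and takes part in its imprinting, was left out of the members. It read 3.92 in samples 11 and 13, 3.94 in sample 15 and 3.91 in sample 17, under background in each.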
